A study of Mus musculus with 6 samples.

Results

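The H2 complex, the mouse major histocompatibility complex, was examined in ChIP-seq peak lists of 2 Ewing sarcoma cell lines, ES48 and ES49. Its members are all peaks of 5 lists that touch the mm9 window from 33.9 to 37.3 Mb on chromosome 17, which runs from the H2-K end to the H2-M end of the complex. There were 379 of them among 76477 peaks: 144 H3K27ac peaks in ES48, 162 H3K27ac peaks in ES49, 65 H3K27me3 peaks in ES49, and 7 EWS-FLI1 peaks in ES48 against 1 in ES49. Both lines are murine tumour cells induced by the fusion protein EWS-FLI1, on a Balb/c background, kept in serum-containing medium without further treatment. The fusion was precipitated through FLAG, and H3K27ac and H3K27me3 with antibodies to the marks. H3K27me3 was profiled in ES49 alone, so it cannot be compared between the lines. An ES49 input sample was not analysed here. Each line and antibody has 1 library, so no difference between the lines could be tested, and the lists carry no read counts, so depth is unknown.

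The H2 complex holds the class I and class II genes whose products present peptides to T cells, together with genes of antigen processing, complement and tumour necrosis factor. Acetylation of histone H3 at lysine 27 marks active promoters and enhancers, and trimethylation of the same residue marks chromatin repressed by Polycomb. EWS-FLI1 joins a transcriptional activation domain to the DNA-binding domain of an ETS factor. In the RefSeq table of GRCm38.p6, 283 genes lie from H2-K1 to H2-M2, pseudogenes and RNA genes included, and 169 are protein-coding. An H2 name is borne by 45 of the 283, of which 35 are protein-coding. H2-K1, a class I gene, comes first. The class II genes H2-DMa, H2-Ab1, H2-Aa and H2-Eb1 follow, then Notch4, the complement gene C4b, Tnf and the class I gene H2-D1. The H2-Q, H2-T and H2-M class I genes come after these, with 27 olfactory receptor genes, pseudogenes included, among the last of them. That table is of another build, so its positions were not used and peaks are given by mm9 position on chromosome 17, with no gene attached. How many of the 283 genes lie inside the window is therefore not known. The label rests on the window's position alone, as no gene annotation of mm9 was at hand to check it. The mm9 assembly is of C57BL/6J, a strain with another H2 haplotype than Balb/c, and many class I genes are close copies. How reads matching several copies were handled is not given in the sources used here, and its part in the peaks was not tested.

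Every list but that of EWS-FLI1 in ES49 was at least 2 times as dense in the window as over the genome. H3K27ac peaks covered 356 kb of the 3.4 Mb in ES48, or 10.5%, against 1.87% over all chromosomes, a 5.59-fold difference. In ES49 they covered 227 kb, or 6.67% against 1.39%, a 4.80-fold difference. H3K27me3 covered 49.01 kb, or 1.44% against 0.642%, a 2.24-fold difference. The same order held against the rest of chromosome 17, where the shares were 2.32%, 1.48% and 0.404%. EWS-FLI1 peaks numbered 2.06 per Mb in ES48 against 0.238 over all chromosomes, and 0.294 against 0.264 in ES49. The window was therefore rich in both histone marks, and EWS-FLI1 peaks were more frequent there than over the genome in ES48 and near the genome's density in ES49, with counts of 7 and 1 that were not tested against each other.

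Cut into 100 kb steps, the window fell into acetylated blocks, a Polycomb stretch and nearly empty parts. Steps were classed by H3K27ac of either line and H3K27me3 of ES49. Of its 34 steps, 18 held H3K27ac without H3K27me3, 8 held both marks, 2 held H3K27me3 alone and 6 held neither. The step at 34.8 Mb counts among those with both marks, although its H3K27ac was that of ES48 alone. H3K27ac was found in both lines in 25 steps, in ES48 alone in 1 and in neither in 8, where 38.3% of the steps of the genome had a peak of either line. Over the genome 6.72% of steps held both marks and 54.6% held neither. In the window these shares were 23.5% and 17.6%. Steps with both marks were thus more frequent than over the genome, although single peaks almost never overlapped, as given further on. Each mark was also more frequent by itself, with H3K27me3 in 10 of the 34 steps against 13.9% over the genome. Whether the marks shared steps more often than their separate frequencies give was not tested.

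**Figure D1:**
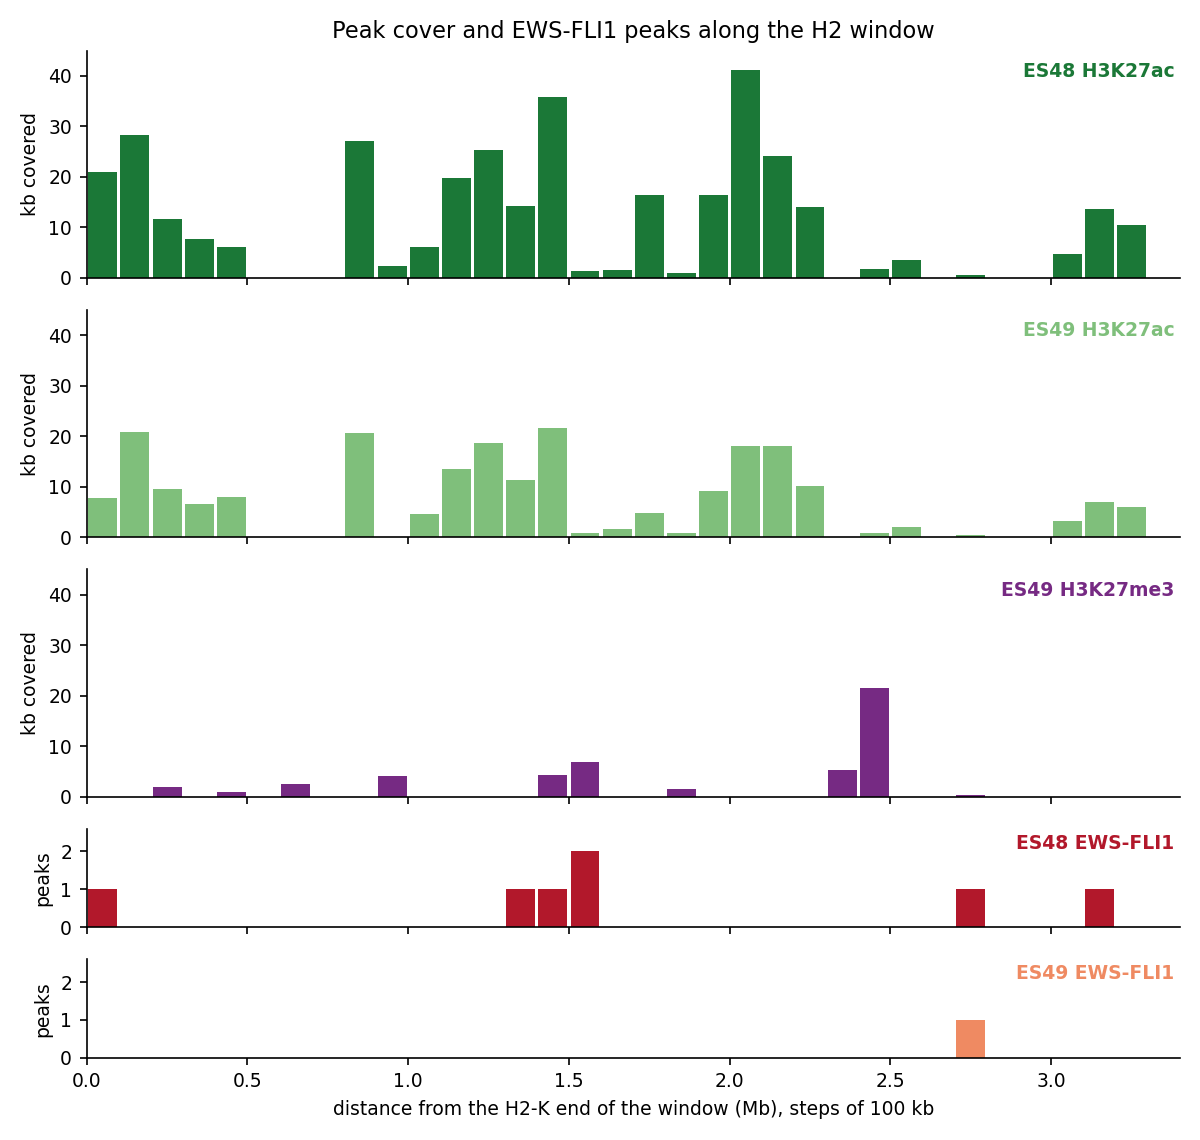
Kilobases covered by peaks of each histone list, and numbers of EWS-FLI1 peaks, in 34 steps of 100 kb, plotted by distance from the H2-K end of the window. The H3K27ac profiles of the lines rise and fall together, and H3K27me3 is highest in the step at 2.4 Mb from the start, with 21.5 kb.

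The first 500 kb, at the H2-K end, were acetylated in both lines. The step starting at 33.9 Mb had 20.9 kb covered by H3K27ac in ES48 and 7.80 kb in ES49. That at 34 Mb had 28.3 and 20.8 kb, and that at 34.1 Mb had 11.6 and 9.485 kb. In both lines acetylation was thus highest in the second step. The step at 34.2 Mb had 7.76 and 6.66 kb, nearly all of it 1 wide peak per line. At 34.3 Mb the order of the lines turned, with 6.18 kb in ES48 and 7.86 kb in ES49. These 5 steps together had 74.7 kb in ES48 and 52.7 kb in ES49.

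From 34.4 to 34.7 Mb neither line had an H3K27ac peak. ES49 had 6 narrow H3K27me3 peaks there, 2.425 kb in all and with scores of at most 92.3. Scores are the peak caller's own and run from 50 upward. Their scale is not stated, so they are read within a list, apart from an alternative measure of the steps that divides each list's scores by their sum. The stretch from 34396729 to 34521564, 125 kb long, held no peak of any list.

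The middle of the window, from 34.7 to 36.2 Mb, held most of the acetylation. ES48 had 103 H3K27ac peaks over 247 kb there and ES49 had 113 over 154 kb. Acetylation was not even within it. The steps at 34.7, 35.1 and 35.3 Mb had 27.1, 25.3 and 35.8 kb in ES48 and 20.6, 18.7 and 21.7 kb in ES49. Those at 35.0 and 35.2 Mb were lower, with 19.8 and 14.2 kb in ES48 and 13.6 and 11.4 kb in ES49. Low steps lay between these blocks in both lines. At 34.9 Mb the cover was 6.19 and 4.66 kb, at 35.4 Mb 1.39 and 0.758 kb, at 35.5 Mb 1.62 and 1.685 kb, and at 35.7 Mb 0.976 and 0.880 kb. In the step at 35.4 Mb H3K27me3 covered more than H3K27ac of either line, with 6.83 kb.

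The highest acetylated step of ES48 was that at 35.9 Mb, with 41.3 kb in 19 peaks against 18.1 kb in 10 peaks in ES49. The next steps, at 36.0 and 36.1 Mb, had 24.2 and 14.0 kb in ES48 and 18.2 and 10.2 kb in ES49. In ES49 the highest step was that at 35.3 Mb, with 21.7 kb. The first place thus went to different steps, but 4 of the 5 steps with the most cover were the same in both lines, at 34, 34.7, 35.1 and 35.3 Mb. The fifth was 35.9 Mb in ES48 and 36.0 Mb in ES49.

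Past 36.2 Mb acetylation gave way to H3K27me3 and then to few peaks of any kind. The steps at 36.2 and 36.3 Mb had 5.185 and 21.5 kb of H3K27me3 in ES49, and H3K27ac covered at most 1.78 kb of either step in either line. From 36.4 to 36.9 Mb ES48 had 3 H3K27ac peaks and ES49 had 2. The longest stretch of the window without any peak, 351 kb, ran from 36622024 to 36972846. At the H2-M end, from 36.9 to 37.3 Mb, acetylation returned with 28.8 kb in ES48 and 16.2 kb in ES49, and no H3K27me3 peak was called. The last H3K27ac peak inside the window ended at 37184794 in ES48 and at 37187635 in ES49. The first beyond it lay 107 kb past the end in each line, and at the other end the last peaks before the window lay 1.55 and 1.67 kb outside it.

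The comparison of the lines asked where H3K27ac differed. In the window ES48 covered more than ES49, by a ratio of 1.57, and its whole list also covers more (48261 against 35820 kb, a ratio of 1.35), with a mean peak width of 1858 against 1208 bp. The rest of chromosome 17 had the ratio 1.57 as well. Cover was therefore divided by that of the whole list, and a step was called where at least 2 kb was covered in either line and the scaled values differed at least 2-fold. Of 21 steps with enough cover, 2 had more H3K27ac in ES48, where 17.1% of such steps in the genome did, and 0 had more in ES49, where 8.60% did. The scaled ratio of the 20 steps covered in both lines ran from 0.584 to 2.50, with a median of 1.05. By this measure 19 of the 21 steps were within 2-fold, and with so few steps the shares of calls cannot be told from those of the genome.

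**Figure D2:**
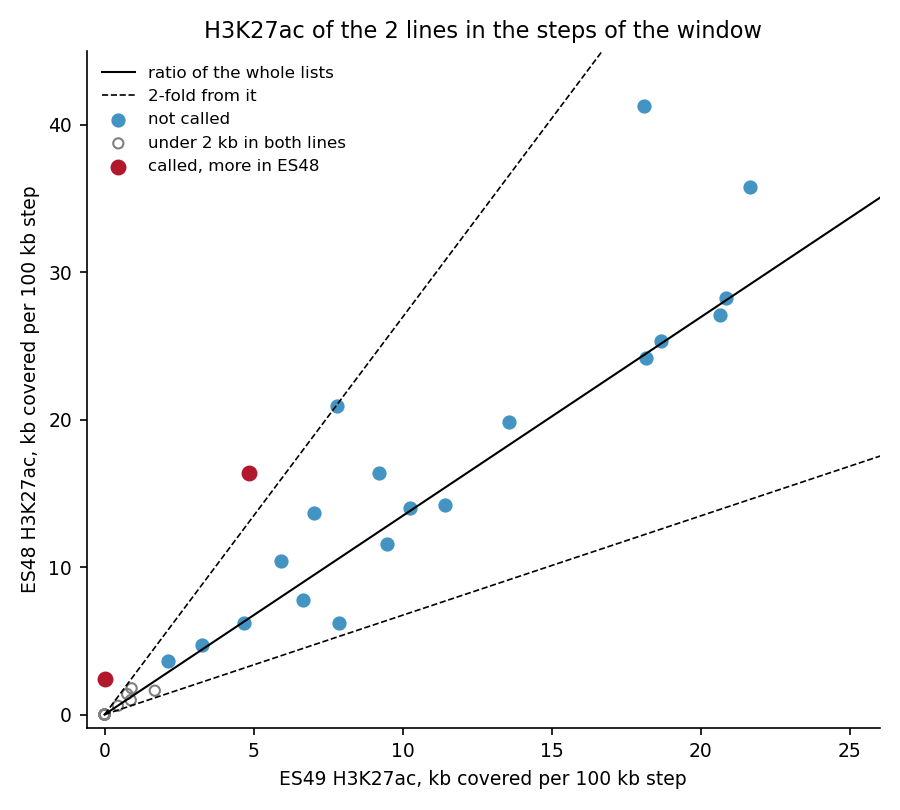
H3K27ac cover per 100 kb step in ES49 (x axis, kb) and ES48 (y axis, kb), 1 point per step. The solid line is the ratio of the whole lists, 1.35, the dashed lines are 2-fold from it, and the 2 called steps (16.4 against 4.86 kb, and 2.415 against 0 kb) lie above the upper line.

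The step at 35.6 Mb was called with 16.4 kb in ES48 and 4.86 kb in ES49, a scaled ratio of 2.50. Each line had 6 peaks touching it, but they differed in width. ES48 had peaks of 3668 bp at 35652216 to 35655883 and 5886 bp at 35683541 to 35689426, both with a score of 3100, the value at which the scores of the list level off. ES49 had, within the first of these, 1 peak of 887 bp with a score of 178.4. Within the second it had peaks of 470, 391 and 1078 bp, with scores of 51.5, 50.7 and 457.6. The widest H3K27ac peak of the window that ES48 had alone lay between them, at 35667215 to 35670938, 3724 bp wide with a score of 2280, and the nearest ES49 peak was 8775 bp away. A further place common to both lines was 35679541 to 35681739 in ES48, where ES49 had a peak of 1650 bp with a score of 484.3. Both lines were thus acetylated at the flanks of this stretch, and ES48 alone in its middle.

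The other called step, at 34.8 Mb, had 2.415 kb in 2 ES48 peaks and no H3K27ac in ES49. These were 34820729 to 34822202, 1474 bp wide with a score of 243.2, and 34822219 to 34823159, 941 bp wide with a score of 149.0, both below the list's median score of 547.5. The nearest ES49 acetylation was 27734 bp away. In ES49 the step held H3K27me3 instead, with 4 peaks over 4.085 kb from 34807086 to 34812018, and 8710 bp separated these from the first ES48 peak. H3K27me3 was not profiled in ES48, so whether that line also carries it there is not known.

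The step at 33.9 Mb was just below the limit, with a scaled ratio of 1.99. Its ES48 peak at 33914749 to 33922401, 7653 bp wide, held ES49 peaks of 1811 and 443 bp. It was called for ES48 without scaling, by summed scores (scaled ratio 2.31) and with the upper 50% of peaks by score (2.61). The next ratios were 1.69 at 35.9 Mb and 1.45 at 37 Mb. The former depends on where the step begins: with borders moved by 50 kb the step starting at 35.85 Mb was called for ES48 at 2.76, above the 2.50 of the step at 35.6 Mb. The step at 35.9 Mb was also called by peak number (2.06) and without scaling (2.28). At the other end the lowest ratio, 0.584, was that of the step at 34.3 Mb. A peak with the highest score of the whole ES49 list, 3233.06, stood there, at 34341259 to 34343226. It is 1 of 4 peaks of that list with this score. The ES48 peak at the same place, 34340875 to 34343136, was slightly wider, at 2262 against 1968 bp, but it ranked 9445th of 25970 in its own list with a score of 1242. A second ES49 peak with the level-off score, at 34333577 to 34336756, met an ES48 peak with a score of 1008. By summed peak scores, each divided by the sum of its list, this step was called for ES49 with a scaled ratio of 0.266. That measure sets scores of 2 lists side by side although their scale is unknown and more ES48 than ES49 peaks reach the level-off score, so it is given as a description. The calls depend on the measure: with peak numbers 3 of 21 steps had more in ES48 and 1 in ES49, and with summed scores 4 and 1 did. Over the genome 19.1% and 11.5% of steps were called by peak numbers, and 24.1% and 7.95% by summed scores. With so few steps the window cannot be told from these shares.

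Peak by peak, ES49 acetylation in the window was mostly found in ES48 too. Of 162 ES49 peaks, 138 (85.2%, 95% Clopper-Pearson interval 78.8 to 90.3) overlapped an ES48 peak, where 68.6% of the whole ES49 list did and 75.8% of that on the rest of chromosome 17. In the other direction 97 of 144 ES48 peaks (67.4%, 59.1 to 74.9) overlapped an ES49 peak, where 66.6% of the whole list and 61.4% of the rest of chromosome 17 did. The ES49 share lay above its background and the ES48 share at it. However, ES48 acetylation covered 10.5% of the window against 1.87% over all chromosomes. Of the ES49 peaks there, 58.6% reached the median score of their list. What part these have in the ES49 share was not tested. The intervals cover counting error only, and neighbouring peaks are not independent, so they are too narrow. In length, 212 kb was covered in both lines, 93.3% of the ES49 cover and 59.3% of the ES48 cover, against 79.1% and 58.7% over all chromosomes. Over the 34 steps the cover of the lines had a Spearman rho of 0.96 and a Pearson r of 0.94, against 0.88 and 0.88 over 25758 steps of the genome, a description in which both lines share gene-dense and gene-poor sequence.

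**Figure D3:**
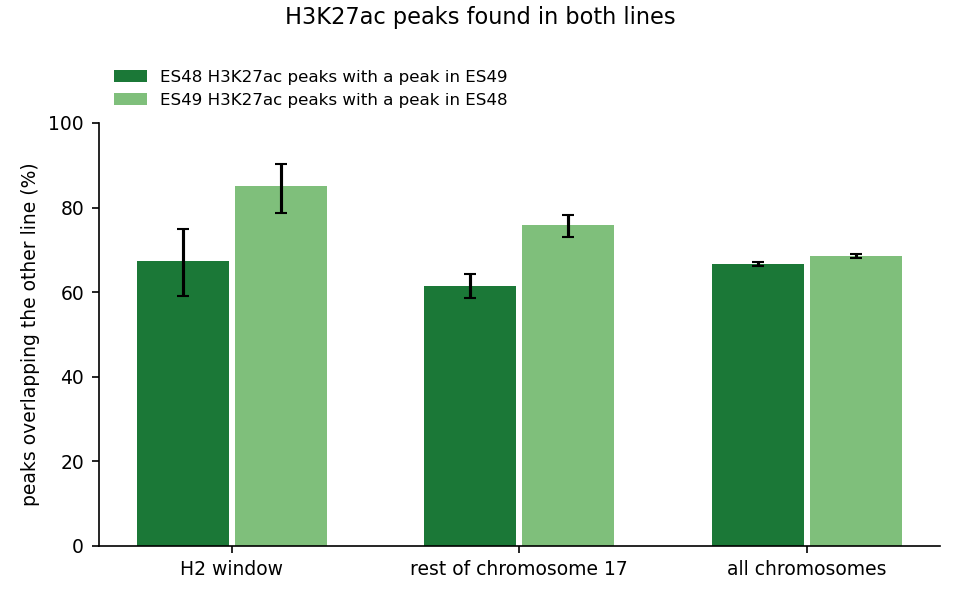
Share of H3K27ac peaks of each line that overlap a peak of the other by at least 1 bp, in the window, on the rest of chromosome 17 and on all chromosomes. Bars are percentages with 95% Clopper-Pearson intervals, and the ES49 bar of the window, at 85.2%, stands above both others of ES49.

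Peaks of a single line were narrower than shared ones, as over the genome, and those of ES49 all scored below the median of their list. The 24 peaks of ES49 alone were 309 to 695 bp wide with a median of 396 bp, and their scores ran from 50.2 to 94.8. The median of the list is 165.85, which 13.7% of the peaks that ES49 has alone over all chromosomes reached. Shared ES49 peaks had a median width of 1358.5 bp. Over all chromosomes the median widths were 457 bp for peaks of ES49 alone and 1243 bp for shared ones. Of the 5 widest peaks of ES49 alone in the window, 35984377 to 35984828 lay 21 bp and 35197631 to 35198076 lay 43 bp from an ES48 peak. The widest, 34701130 to 34701824, lay 21250 bp from one, and 35052261 to 35052815 and 36168284 to 36168723 lay 3415 and 5750 bp away. No ES49 peak of the window thus both reached the median score of its list and lacked an ES48 peak. With 24 such peaks, this was not tested against the 13.7% over all chromosomes.

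ES48 had 47 peaks of its own, 323 to 3724 bp wide with a median of 654 bp, against 2793 bp for its shared peaks. Over all chromosomes these medians were 690 and 1953 bp. Of the 47, 3 (6.38%) reached the median score of their list, where 13.2% of the peaks that ES48 has alone over all chromosomes did. With so few peaks, this difference was not tested. The 3 peaks were among the widest of ES48 alone. Besides 35667215 to 35670938, these were 35943856 to 35946197, with 2342 bp and a score of 2007, and 35907154 to 35909540, with 2387 bp and a score of 958.8. The next in width, 35946223 to 35947790, adjoined the former. The strongest acetylation found in ES48 alone was thus in the steps at 35.6 and 35.9 Mb.

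Strong peaks were common in the window in both lines. In ES48 54 of 144 peaks (37.5%) had at least the level-off score of 3100, where 19.6% of the whole list did, and in ES49 18 of 162 (11.1%) had, where 6.01% did. Among the widest were 35180345 to 35190264 in ES48, with 9920 bp, where ES49 had 3 peaks of 1062, 3239 and 608 bp, and 35833432 to 35843296, with 9865 bp, where ES49 had 4 of 669 to 1918 bp. The widest ES49 peak, 34254680 to 34260944 with 6265 bp, and the second, 36001632 to 36007058 with 5427 bp, lay inside ES48 peaks of 7762 and 8974 bp. The other 3, at 35369316 to 35373758, 34726677 to 34731094 and 35957596 to 35961606, met ES48 peaks of 4790, 6082 and 4984 bp. At these wide peaks the lines thus differed in width or splitting, not in place. The first of the ES48 peaks at the level-off score by position, 33953455 to 33956060, 33958976 to 33963200, 34044686 to 34047982 and 34051801 to 34058106, were likewise all met by ES49 peaks. So were the ES49 peaks of that score at 34160653 to 34163139 and 34166500 to 34170444 in ES48. All these peaks were picked by width or score, and peaks of a single line were mostly narrow and low in score. The picked peaks therefore cannot show how often places differed in the window. There 47 of 144 ES48 peaks and 24 of 162 ES49 peaks overlapped none of the other line.

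Peaks less than 12500 bp apart were joined into domains, 41 in ES48 and 44 in ES49. The ES48 domain with the most cover ran from 35905801 to 36017734, with 24 peaks covering 54.0 of 112 kb, and ranked 4th among 13750 ES48 domains of the genome. ES49 had 14 peaks covering 26.8 kb in the same stretch, a ratio of 2.01, or 1.495 once scaled by the whole lists. Joined in ES49's own list, the acetylation there began at 35949449, ended at 36017615 and covered 22.8 kb in 12 peaks, and it was ES49's first domain of the window too, 105th of 13484 in its genome. Both lines thus had their most acetylated domain at the same place, longer and fuller in ES48. With peaks joined at less than 5 kb, the first ES48 domain had 26 kb and ranked 43rd, and the first of ES49 was another one, from 34722369 to 34744030, with 11.7 kb.

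The other leading domains matched more closely. The second of ES48, from 35298057 to 35382226, had a cover of 36.9 kb in ES48 and of 21.5 kb in ES49, a scaled ratio of 1.27. The third of ES48, 34044686 to 34095361, matched the second of ES49, 34045127 to 34093722, with 26.96 and 19.998 kb and a scaled ratio of 1.0006. The third of ES49, 34722369 to 34765923, had 14.8 kb in ES49 and 17.04 kb in ES48. None of these domains held an H3K27me3 or an EWS-FLI1 peak.

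**Figure D4:**
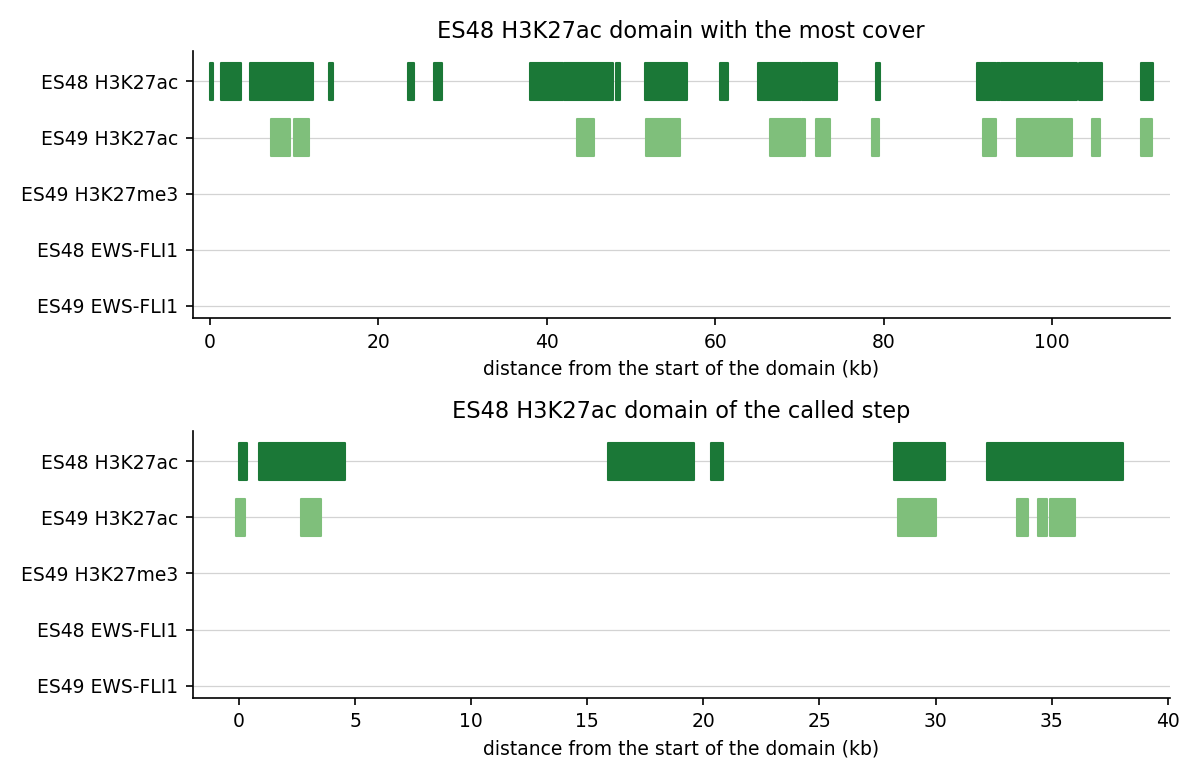
Peaks of the 5 lists as bars along the first ES48 H3K27ac domain (112 kb, top) and the domain of the step called at 35.6 Mb (38.1 kb, bottom), by distance from the domain's start in kb. ES48 bars are wider or more numerous than ES49 bars, and H3K27me3 and EWS-FLI1 have no bar in either domain.

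H3K27me3 of ES49 was concentrated in 1 stretch. Of its 65 peaks, 34 (52.3%), with 54.4% of the length covered, lay from 36275201 to 36373931, and joined as above they formed a domain of 98.7 kb, which ranked 78th by covered length among 4750 H3K27me3 domains of the genome. These 34 peaks were 243 to 3062 bp wide, covered 26.7 kb and had a median score of 94.9. The strongest, 36351443 to 36354504, was also the widest H3K27me3 peak of the window and had its highest score, 1101. Others of high score or width were 36303764 to 36305528 (score 635.8), 36281877 to 36283103 (609.9), 36342063 to 36343647 (414.4) and 36325671 to 36327456 (247.2). The stretch was thus a run of many modest peaks. Joined at less than 5 kb, its longest domain was 48.5 kb. No H3K27ac peak of either line fell inside it, and the nearest, an ES48 peak at 36381345 to 36381894, was 7413 bp from its edge.

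H3K27me3 was found in 10 of the 34 steps, where 13.9% of the steps of the genome had a peak. Besides the long domain, H3K27me3 formed 12 smaller ones. The second, from 35383606 to 35394722, had 5 peaks over 4.26 kb and lay in the step with the most ES49 acetylation, at 35.3 Mb. Its first peak began 1379 bp from ES48 acetylation and 2289 bp from that of ES49. The third, 34807086 to 34812018, held 34807872 to 34810469, the second highest peak by score and by width, with 904.5 and 2598 bp. A further 3 domains lay from 35412620 to 35459067. The step at 34.1 Mb had 2 peaks, of which 34114824 to 34116203 had a score of 533.7, between acetylated places in both lines.

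H3K27ac and H3K27me3 peaks overlapped at a single place of the window. In ES48 1 of 144 H3K27ac peaks overlapped ES49 H3K27me3 (0.694%, 0.0176 to 3.81), where 1.74% of the whole list did, and in ES49 1 of 162 did (0.617%, 0.0156 to 3.39), where 0.890% did. With 1 peak each, neither share could be told from its background.

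EWS-FLI1 had 7 peaks in the window in ES48, of which 6 had scores below 70. The peaks of the lines lay in 6 of the 34 steps, where 2.20% of the steps of the genome held one. Their scores were 53.4 at 33913492 to 33913681, 56.25 at 35266049 to 35266223, 69.3 at 35392643 to 35392975, 54.8 at 35445132 to 35445302, 64.6 at 35448711 to 35448958 and 59.0 at 37006651 to 37006859. The lowest score of the list is 50.1 and its median 65.4, so 5 of the 6 lay below the median. They were 171 to 333 bp wide. ES49 had no peak at any of these places. The seventh ES48 peak, 36621512 to 36621929, had a score of 1366, 15th of 614, and overlapped the only ES49 peak, 36621598 to 36622023, with a score of 1956, 21st of 681. So 1 of 7 ES48 peaks was shared (14.3%, Clopper-Pearson interval 0.361 to 57.9), where 44.1% of the whole list was. On the rest of chromosome 17, 3 of 20 ES48 peaks were shared (15.0%). The interval holds both backgrounds, so the window's share cannot be told from either. The 1 ES49 peak was shared, where 27.8% of the whole ES49 list was. The lines therefore had their highest-scoring EWS-FLI1 peak of the window in common, at a place with a peak in all 5 lists that is described below. They differed in 6 ES48 peaks of low score.

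None of these 6 ES48 peaks overlapped acetylation, though 2 lay near its edge. That at 35266049 was 945 bp from ES48 H3K27ac and 1249 bp from ES49 H3K27ac, inside the gap of a domain acetylated in both lines. That at 33913492 was 1067 bp from ES48 H3K27ac and 1599 bp from that of ES49. The peak at 35392643 lay inside an ES49 H3K27me3 peak of 1249 bp with a score of 571.0, 6224 bp from ES48 acetylation. The pair at 35445132 and 35448711 lay 477 and 4056 bp from H3K27me3, and the peak at 37006651 was 24598 bp from ES48 acetylation and 384694 bp from H3K27me3. In the ES48 list 1 of 7 peaks thus overlapped H3K27ac (interval 0.361 to 57.9%), where 34.4% of the whole list did. ES49 H3K27me3 was overlapped by 2 of 7 (3.67 to 71.0%), where 26.7% of the whole list did so. On the rest of chromosome 17 the shares were 15.0% (3 of 20) and 10.0% (2 of 20). Neither share of the window could be told from these backgrounds. For the ES49 peak the whole-list backgrounds were 19.7% and 12.6%.

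The place at 36621512 had a peak in all 5 lists. H3K27ac was called from 36621383 to 36621978 in ES48 and from 36621538 to 36621983 in ES49, with scores of 950.45 and 419.5, and H3K27me3 from 36621569 to 36621956 with a score of 870.1. The 5 peaks were 388 to 596 bp wide, unlike the wide acetylated peaks elsewhere in the window. It is the single overlap of H3K27ac with H3K27me3 in the window and the single overlap of EWS-FLI1 with H3K27ac. In the whole ES48 EWS-FLI1 list 116 of 614 peaks (18.9%) overlapped peaks of all 4 other lists. The place is isolated, with no other peak of any list for 211 kb before it and 351 kb after it. What part reads that gather there with any antibody have in these calls was not tested.

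**Figure D5:**
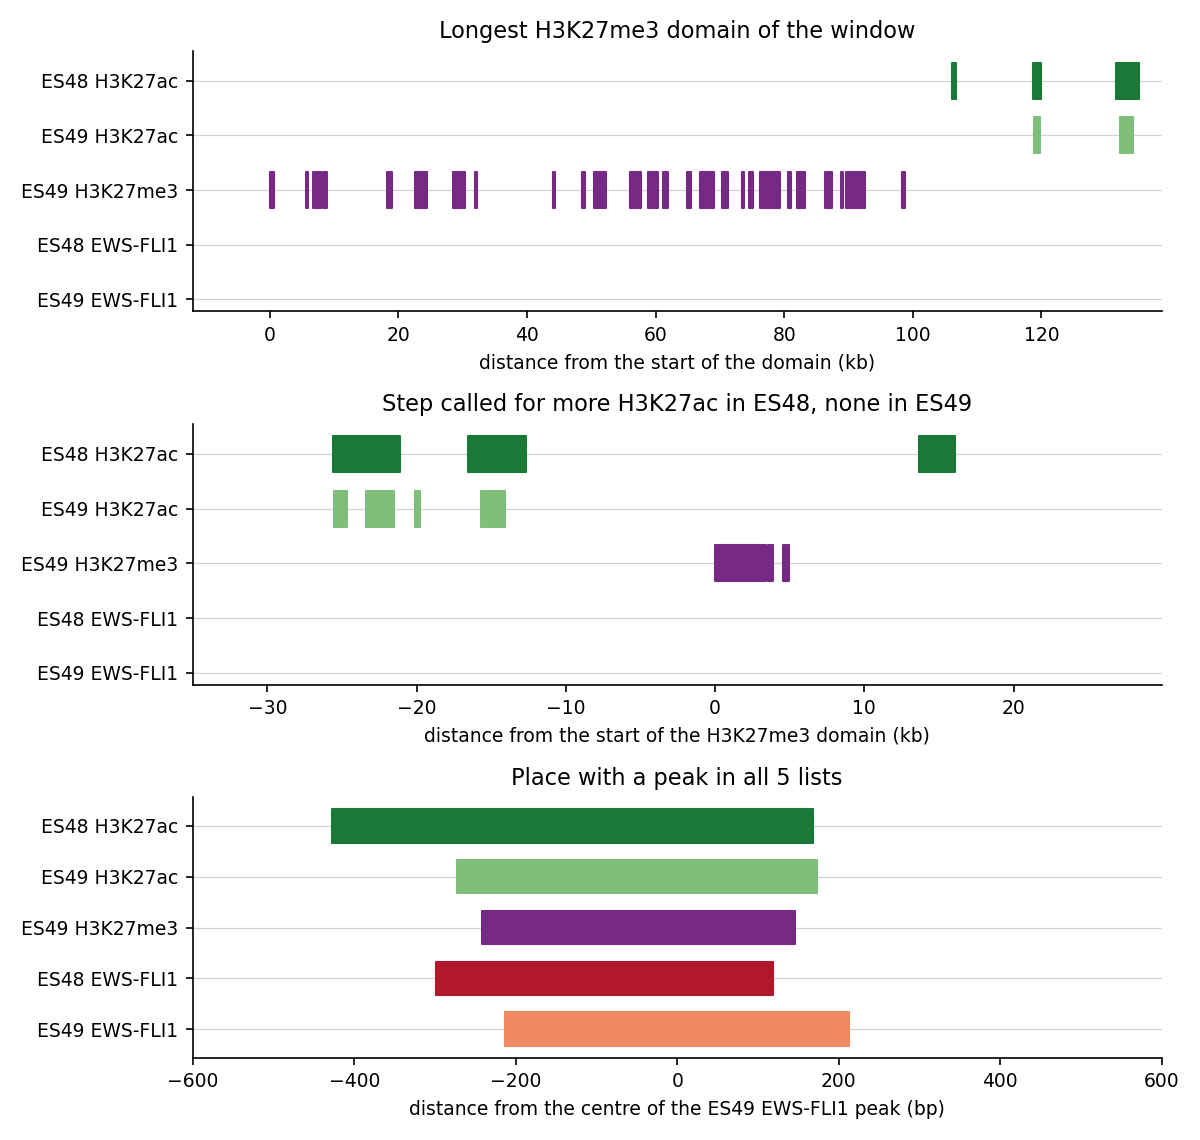
Peaks of the 5 lists as bars at 3 places: the longest H3K27me3 domain (top, kb), the step at 34.8 Mb (middle, kb) and the place with a peak in all lists (bottom, bp). H3K27ac stops short of the H3K27me3 domain at the top, ES48 acetylation lies 8710 bp from ES49 H3K27me3 in the middle, and 5 narrow peaks of 388 to 596 bp overlap at the bottom.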

How the data were processed

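Peak lists of 5 of 6 samples were used. The submitters' processing notes name mm9, Bowtie 1.1.1 and SAMtools 1.2. Peak names point to a MACS program; for its version, settings and control nothing is stated in the sources at hand. The deposited files hold a position and a score for each peak, the score being the caller's own. Starts are printed 1-based.

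An overlap needs 1 bp in common. Cover is the summed width of peaks in a step or stretch. Genome backgrounds use all 25758 steps of 100 kb between the first and last peak of any list on each chromosome. With 1 library per group no test was run. In the window, the main shares of H3K27ac peaks and of ES48 EWS-FLI1 peaks that overlap another list carry 95% Clopper-Pearson intervals. Named peaks are every EWS-FLI1 peak, the 5 highest and 5 widest of each histone list, the 5 widest H3K27ac peaks of 1 line alone and the 3 leading H3K27ac domains per line, with ties going to the lower start. Other peaks named, the H3K27me3 domains and the stretches longer than a step were chosen after their values were seen. The window and rules were chosen with earlier results of these data known. Overlap, joining and step calls were tested on simulated data. No genome of mm9 was used, so no sequence or gene is attached to a peak. Tables were made in Python 3.11.15 (pandas 2.3.3 and numpy 2.4.6), intervals with scipy 1.17.1 and plots with matplotlib 3.10.9.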

Additional observations from a re-analysis of the deposited data

How the results depend on the processing

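Overlaps were recomputed with peaks up to 1 kb apart, with 50% of the shorter peak in common, after keeping the higher-scoring 50% of every list, and with peaks wholly inside the window. Steps and domains were recomputed under other measures and limits and with joining at 5 kb. Of 52 values 34 stayed within their interval or within 1.5 times the main count. The share of ES48 H3K27ac peaks found in ES49 was 82.6% with peaks within 1 kb and 87.1% with the upper 50% by score. The ES49 share was 92.6% with the upper 50% by score. These shares were computed for the window alone, so they cannot be set against a genome share under the same setting. Steps with more H3K27ac in ES48 numbered 4 without scaling, 4 by summed score and 1 at a fold of 3, each of 21. Over the genome 24.8%, 24.1% and 11.4% of steps were called so. Steps with more in ES49 numbered 1 by peak number and 1 by summed score, where 11.5% and 7.95% of the genome's steps were called. The step at 34.8 Mb was called under 5 of these alternatives and not with borders moved by 50 kb or with the upper 50% by score. The step at 35.6 Mb was not called by peak number or at a fold of 3, and its place was called under the 5 others. Of the 7 ES48 EWS-FLI1 peaks 2 were in the upper 50% by score, and with peaks within 1 kb 2 met ES48 H3K27ac. Joined at 5 kb, H3K27ac gave 72 domains in ES48 and 75 in ES49. Chosen after the data were seen, the same joining gave 21 H3K27me3 domains, the longest 48.5 kb, and first H3K27ac domains of 26 kb, ranked 43rd in ES48, and 11.7 kb, ranked 216th in ES49. The cause of these changes was not tested. Read depth is not in the lists, so weak and absent peaks cannot be told apart.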
